A study of Mus musculus with 40 samples.

Results

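The livers of 5 ovariectomized female mice that carried an estradiol pellet were compared with the livers of 5 intact females, which are 10 of the 40 livers of the series. Animals were taken by their labels alone, animals 33 to 37 for estradiol and animals 1 to 5 for intact females, and no measured value entered the choice. The question is how a steady pellet of estradiol differs from the natural ovary. The series has 8 groups of 5, and all mice were C57BL/6J, an inbred laboratory strain, fed chow with 4% fat and killed at 14 weeks of age after a fast of 12 h. The estradiol mice lost their ovaries at 8 weeks and received a 0.5 mg pellet at 12 weeks, made to release over 21 days and to give 300 pg/ml of estradiol in plasma. Another group, ovariectomized females with a placebo pellet (animals 16 to 20), and castrated males with estradiol or placebo pellets operated on and given pellets at the same ages, are used below only for values set beside these. The labels mention neither a sham operation nor a pellet for the intact females and give no stage of their estrous cycle, so ovary loss, surgery, pellet and steady dosing cannot be told apart in this comparison.

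The liver carries estrogen receptor alpha, the product of Esr1, a nuclear receptor that binds DNA as a dimer. Estradiol is known to act on hepatic lipid, bile acid and clotting factor genes, and the ovary delivers it in cycles together with progesterone. After an overnight fast the liver normally makes glucose, burns fatty acids and forms ketones, and its clock genes set much of that program by time of day.

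Each liver RNA, labelled with Cy5, was hybridised with Cy3-labelled pool RNA of 40 livers on 1 array of 23574 probes, and every value below is a log2 ratio to that pool. A difference is the estradiol mean minus the intact mean with its standard error (SE), and a probe or gene is said to have passed, or to be called, where limma gave an adjusted p (Benjamini-Hochberg, over all probes) under 0.05. The Y-linked gene Eif2s3y lay between -6.07 and -4.08 in the 10 livers, against 0.35 in the lowest male, which matched the sex of every label. Of 7 measured hepatocyte markers, among them Ttr, Apoa1, Apob and Hnf4a, 0 passed, and their mean level was -0.08 to 0.22 in intact animals and -0.26 to -0.05 in estradiol animals. The receptor genes did not pass either. Esr1 differed by -0.07 ± 0.12 (limma adjusted p = 0.891) and Ghr, the growth hormone receptor, by 0.11 ± 0.23 (limma adjusted p = 0.919), and 0 of 22 measured hormone receptor and cofactor genes passed.

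Within the estradiol group, animals 33 and 34 stood apart from animals 35, 36 and 37. The deviations from the intact mean over all probes correlated at 0.621, 0.555 and 0.729 among animals 35, 36 and 37. Animal 33 reached 0.308 to 0.33 with these 3, and animal 34 reached -0.218, 0.016 and 0.147. These correlations are across probes that share the intact mean and are given as a description. Among the 138 genes called higher, animal 33 lay within the range of the intact females in 44 and animal 34 in 63, against 4, 1 and 0 for animals 35, 36 and 37. Among the 113 genes called lower the numbers were 6 and 39, against 1, 2 and 0. Both animals carry the same label as the rest, so all 5 are kept, and values without these 2 are given beside many of the results.

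Livers with the estradiol pellet differed from intact livers in 445 of 23574 probes (1.89%), 223 higher (0.946%) and 222 lower (0.942%). Of these, 156 differed by at least 1.5-fold, 94 higher and 62 lower, and 61 by at least 2-fold. By gene, 251 of 10842 passed (2.32%), 138 higher (1.27%) and 113 lower (1.04%). The groups of 5 did not overlap in 265 genes (2.44%), 118 higher (1.09%) and 147 lower (1.36%), and 122 of these (1.13%) also passed, 52 higher and 70 lower. The split by direction moved with scaling, from an even one to 259 higher and 173 lower when each array was centred on its median, and to 454 and 280 when arrays were scaled to equal spread. Quantile normalization tilted it the other way, to 206 higher and 234 lower. Among probes of at least 1.5-fold it gave 58 higher and 73 lower. Single animals weighed heavily. The count was 1455 probes without animal 34 and 617 without animal 33, but 114, 84 and 107 without animal 35, 36 or 37, and 148, 172, 198 and 251 without intact animal 1, 2, 3 or 5. Without animals 33 and 34 together 2086 probes passed, 1190 higher and 896 lower, or 1170 genes (10.8%), 744 higher (6.86%) and 426 lower (3.93%).

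**Figure D1:**
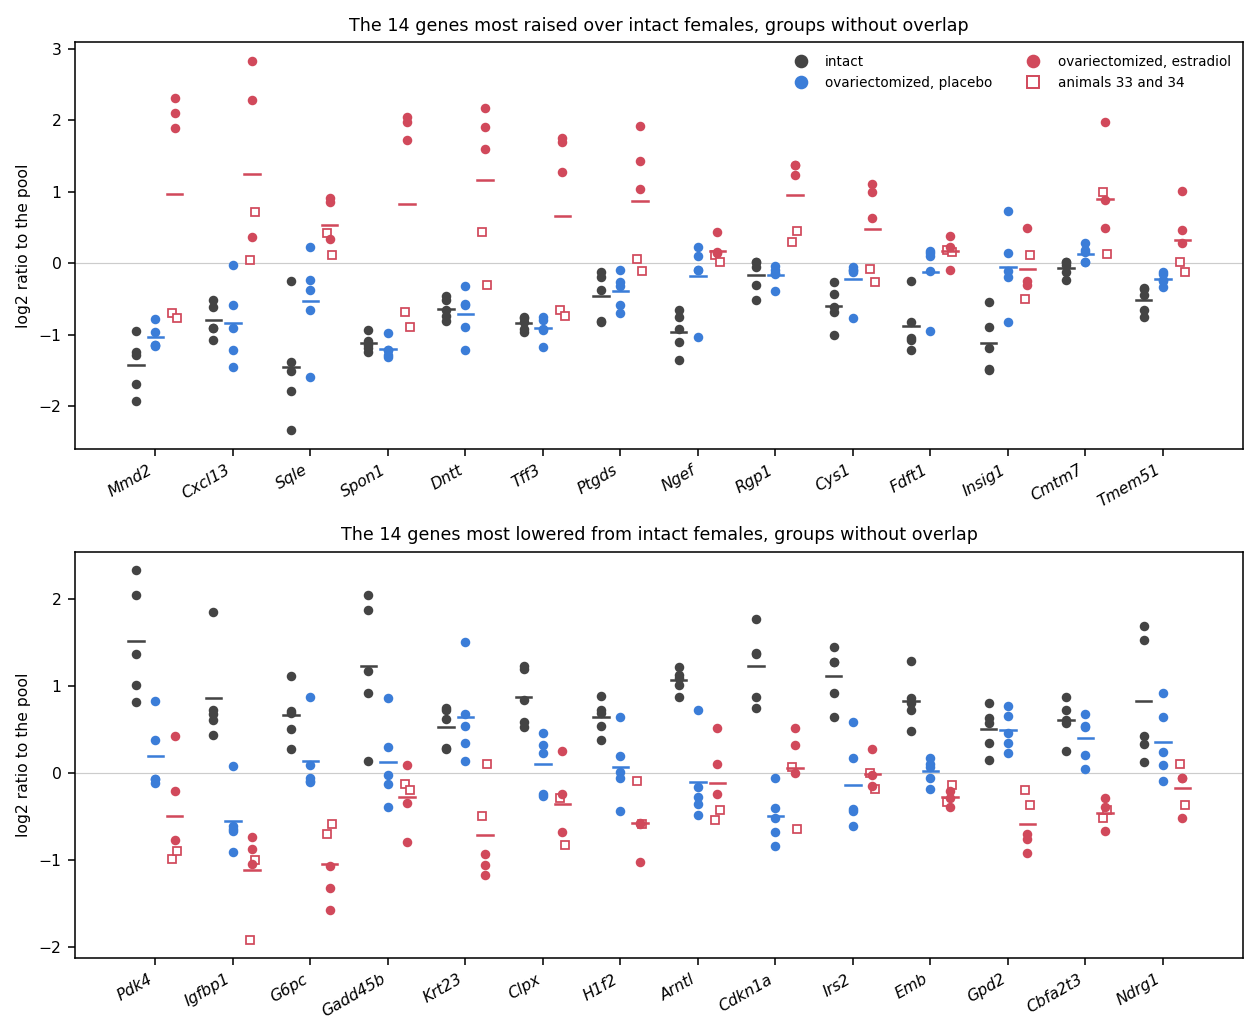
Log2 ratio to the pool per animal for the genes with the largest differences among those that passed without overlap, in intact females (dark), ovariectomized females with placebo (blue) and with estradiol (red, animals 33 and 34 as open squares), with lines at group means. Mmd2, Spon1 and Tff3 show animals 33 and 34 just above the intact range and the other 3 far above it, while Sqle, Ngef, Pdk4 and Emb show all 5 estradiol animals together.

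Of 18 measured genes of cholesterol synthesis and uptake 3 were higher in estradiol than in intact livers, against 1.27% of all genes. They were led by the enzymes that form and oxidise squalene. Sqle, squalene epoxidase and a rate-controlling step, lay at -2.34, -1.39, -1.79, -0.25 and -1.51 in intact animals 1 to 5 and at 0.42, 0.12, 0.85, 0.91 and 0.34 in estradiol animals 33 to 37. Every estradiol animal was above every intact one, and animals 33 and 34 lay with the rest. The difference was 1.99 ± 0.38, or 3.97-fold, with a limma adjusted p of 0.00474. Fdft1, squalene synthase, was -1.22, -1.05, -0.83, -0.25 and -1.07 in intact livers against 0.19, 0.15, 0.23, 0.38 and -0.09 with estradiol, a difference of 1.05 ± 0.23 (limma adjusted p = 0.0133). Insig1, the membrane protein that holds the sterol-sensing machinery in the endoplasmic reticulum, differed by 1.03 ± 0.24 (limma adjusted p = 0.0198), again without overlap. Intact animal 4 was the highest intact liver for all 3 genes. In the whole list of 18, 3 rose, 0 fell and 13 had a positive difference, as did 4723 of all 10842 genes. The list median was 0.27 against -0.02 for all genes. In the same list Mvd (0.52), Fdps (0.87) and Lss (0.31), which act before or just after squalene, did not pass at limma adjusted p-values of 0.0516, 0.0594 and 0.052, and Insig2, a relative of Insig1, lay at -1.01 with 0.0534; these 4 were picked after their values were seen. Leaving out intact animal 1, 2 or 3 or estradiol animal 35 or 36 left 2 of the 18. Leaving out intact animal 4 gave 7 higher and 1 lower, and animal 33 gave 5 and 1. Without animal 34 or without animals 33 and 34 together 8 passed, all higher. With both of these animals left out, 6.86% of all genes were called higher.

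Ovariectomy with placebo, set beside this, gave differences from intact of 0.93 for Sqle, 0.75 for Fdft1 and 1.07 for Insig1, and none of the 3 passed in limma (adjusted p = 0.844, 0.42 and 0.0913), where 7 genes in all did (0.0646%). Estradiol minus placebo was 1.05, 0.3 and -0.04, and 0 of the 18 genes of the list passed there. These contrasts share animals with the main one and are not independent of it. For Insig1 the placebo mean (-0.05) and the estradiol mean (-0.09) were thus both far above the intact mean of -1.12, whereas for Sqle the placebo mean of -0.52 lay between -1.46 and 0.53.

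In the estradiol livers 7 of 30 genes of fatty acid burning and 5 of 24 genes of glucose output were lower than in intact livers, and some of these were lower in placebo livers too. Pdk4, the kinase that shuts pyruvate out of the mitochondrial cycle in fasting, had the largest fall of any named gene, from 2.04, 2.33, 1.01, 1.37 and 0.82 in intact livers to -0.99, -0.89, -0.21, 0.43 and -0.77. The groups did not meet, and the difference of -2.0 ± 0.25 (4.01-fold) had a limma adjusted p of 2.66e-05. Angptl4, a secreted inhibitor of lipoprotein lipase, was 0.72, 0.56, 0.56, 0.8 and 0.57 in intact animals and -0.44, -0.03, -0.76, 0.1 and -0.1 with estradiol. Its difference was -0.89 ± 0.16 (limma adjusted p = 0.00226). Cpt2, which completes the carnitine shuttle at the inner mitochondrial membrane, differed by -0.71 ± 0.11 (limma adjusted p = 0.000511), from 0.25 to 0.59 in intact livers down to -0.71 to -0.02. G0s2, an inhibitor of the fat droplet lipase, differed by -1.64 ± 0.37 (limma adjusted p = 0.0182), although animal 34 at 0.26 lay within the intact range of 0.14 to 1.12.

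All 30 measured genes of the fatty acid oxidation and ketone list had a negative difference, from -2.0 to -0.04, with a median of -0.3 against -0.02 for all genes. Of these, 7 fell and 0 rose, a share above the 1.04% of all genes called lower. The other 3, named after their values were seen, were the peroxisome gene Pex11a (-0.72), the thioesterase gene Acot1 (-0.94) and the long-chain dehydrogenase gene Acadl (-0.35), with limma adjusted p-values of 0.035, 0.0485 and 0.0468. In Acadl animal 34, at 0.15, lay within the intact range of 0.1 to 0.31. Mean level over the 30 genes was 0.13 to 0.39 in intact animals, -0.01 and 0.02 in animals 33 and 34, and -0.53, -0.29 and -0.28 in animals 35, 36 and 37, so no estradiol animal reached the lowest intact one. The count was 3 without intact animal 1 or 2 or estradiol animal 35, 36 or 37, and 4 without intact animal 5. Without animals 33 and 34 it was 12, all lower, with a median of -0.45. In that fit 3.93% of all genes were called lower. The receptor gene Ppara, which drives much of this pathway, lay at -0.35 ± 0.16 and did not pass (limma adjusted p = 0.332).

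G6pc, glucose-6-phosphatase and the last step of glucose release, lay at 0.71, 1.12, 0.28, 0.51 and 0.69 in intact livers and at -0.7, -0.58, -1.57, -1.06 and -1.32 with estradiol. That is a difference of -1.71 ± 0.3, or 3.27-fold (limma adjusted p = 0.00239), with a wide gap between the groups. Igfbp1, an insulin-repressed binding protein for insulin-like growth factors, was 0.68, 1.85, 0.61, 0.44 and 0.72 against -1.91, -1.0, -0.87, -0.73 and -1.04. The extremes were intact animal 2 and estradiol animal 33, and the difference of -1.97 ± 0.49 had a limma adjusted p of 0.0295. Without animals 33 and 34 it was -1.74 and passed with a limma adjusted p that rounds to 0.05. Irs2, an adaptor of the insulin receptor, differed by -1.13 ± 0.3 (limma adjusted p = 0.0378) and on its other probe by -0.78 (0.0422). Of 24 measured genes of glucose output and insulin response, 5 fell (G6pc, Igfbp1, Irs2, Pdk4 and the glycogen phosphorylase gene Pygl, the last at -0.34) and 0 rose, and the list median was -0.06. Leaving out intact animal 1, 2 or 3 or estradiol animal 35, 36 or 37 left 2 of the 5 calls, and intact animal 4 or 5 left 3. Pck1, the gluconeogenic enzyme, stayed within -0.38 to 0.19 in all 10 livers and differed by -0.03 ± 0.17 (limma adjusted p = 0.978).

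Placebo livers, which share the intact animals in this comparison, lay low for several of these genes. Placebo minus intact was -1.32 for Pdk4, which passed (limma adjusted p = 0.0387), and -0.75 for Angptl4, -1.41 for Igfbp1, -1.26 for Irs2 and -0.52 for G6pc, which did not (0.0604, 0.591, 0.157 and 1.0). Estradiol minus placebo did not pass for the same 5, at -0.68, -0.14, -0.56, 0.13 and -1.19 (limma adjusted p = 0.246, 0.89, 0.821, 0.977 and 0.0575). For Cpt2 and G0s2 the placebo livers lay near the intact ones, at -0.14 and 0.18 from them, and estradiol minus placebo passed at -0.56 and -1.83 (limma adjusted p = 0.0116 and 0.015). Over the 30 fatty acid oxidation genes the median was -0.03 for placebo minus intact, with 1 gene that passed, and -0.28 for estradiol minus placebo, with 4. Over the 24 glucose genes these medians were -0.02, with 1 gene that passed, and -0.07, with 0.

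Of 22 measured genes known to respond to glucocorticoids, 5 fell and 0 rose, with a median of -0.23, against 1.04% of all genes called lower; 3 fell without intact animal 1. The median was as low for placebo minus intact, at -0.24 with 2 genes that passed, and -0.03 for estradiol minus placebo. Those that fell with estradiol were Pdk4, Angptl4 and Igfbp1, already given, the stress gene Gadd45b (-1.5 ± 0.31, limma adjusted p = 0.0101) and Cdkn1a, the cell cycle inhibitor p21. Classical targets in the list, Fkbp5 (0.72) and Per1, did not pass, at limma adjusted p-values of 0.0992 and 0.992, and neither did Tat. The lists overlap, as Pdk4 sits in 3 of them.

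**Figure D2:**
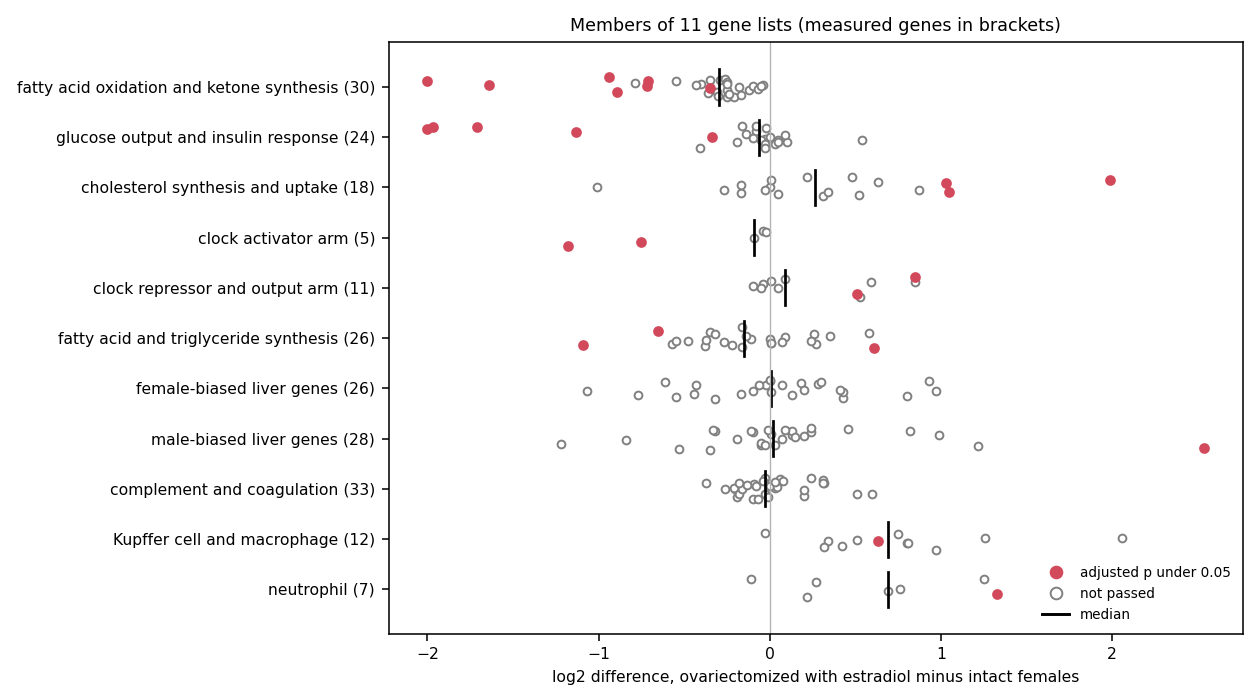
Log2 difference between estradiol and intact females for every measured member of 11 gene lists, with filled points for genes that passed and a bar at each list's median. All 30 fatty acid oxidation genes lie below 0, 3 cholesterol genes passed on the right, and the macrophage and neutrophil lists have medians of 0.69 with 1 member each that passed.

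Of 16 measured clock genes 4 passed, against 2.32% of all genes. The 2 that passed in the activator arm were lower in the livers with estradiol, and the 2 in the repressor and output arm were higher. Arntl, which encodes the activator BMAL1, lay at 1.13, 0.88, 1.22, 1.09 and 1.01 in intact livers and at -0.54, -0.42, 0.11, -0.24 and 0.52 with the pellet. The highest estradiol animal stayed below the lowest intact one, and the difference was -1.18 ± 0.26 (limma adjusted p = 0.0159). Nfil3, a repressor of D-box genes in the same arm, differed by -0.75 ± 0.2 (limma adjusted p = 0.0378), also without overlap. Nr1d1, which encodes the repressor REV-ERB alpha, was -0.66, -1.2, -1.1, -0.97 and 0.01 in intact animals and 0.16, 0.14, -0.04, -0.04 and 0.11 with estradiol. Intact animal 5 alone reached the estradiol range, and the difference of 0.85 ± 0.22 passed (limma adjusted p = 0.0354). Usp2, a deubiquitinase gene under clock control, differed by 0.51 ± 0.14 (limma adjusted p = 0.0386). Placebo minus intact was -1.17 for Arntl, -0.58 for Nfil3, 1.16 for Nr1d1 and 0.32 for Usp2, of which Nr1d1 passed (limma adjusted p = 0.0958, 0.569, 0.0387 and 0.865), and estradiol minus placebo passed for none of the 4, at -0.01, -0.17, -0.31 and 0.19 (limma adjusted p = 0.998, 0.904, 0.724 and 0.72). In all, 2 of 5 activator-arm genes fell and 2 of 11 repressor and output genes rose, against 1.04% and 1.27% of all genes. The other members did not pass, and the list medians were -0.09 and 0.09. Without estradiol animal 36 none of the 16 passed, and without intact animal 1, 2 or 3 or estradiol animal 35 or 37 a single one did, in the activator arm. Without animals 33 and 34 the difference of Arntl was -0.93 and passed (limma adjusted p = 0.0455), and that of Nr1d1 was 0.8 and did not (0.0503), nor did Nfil3 (-0.59, 0.0952) or Usp2 (0.41, 0.105).

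A clock index per animal, the mean of Nr1d1, Dbp, Per3 and Tef minus that of Npas2, Arntl, Clock and Nfil3, ran from -0.78 to -0.409 in intact females and from -0.155 to 0.384 with estradiol, with no overlap. Placebo females, at -0.225 to 0.335, lay in the range of the estradiol animals. The time of death is not given in the labels. With the index as a covariate 822 probes passed, 512 higher and 310 lower, and 18 of the 64 named genes that passed no longer did. Arntl, Nfil3, Nr1d1 and Usp2 enter the index or move with it and are counted among the 64. A loss of their calls in that fit is built in, so the 18 is no measure for genes outside the clock. Their own values in that fit are not given.

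**Figure D3:**
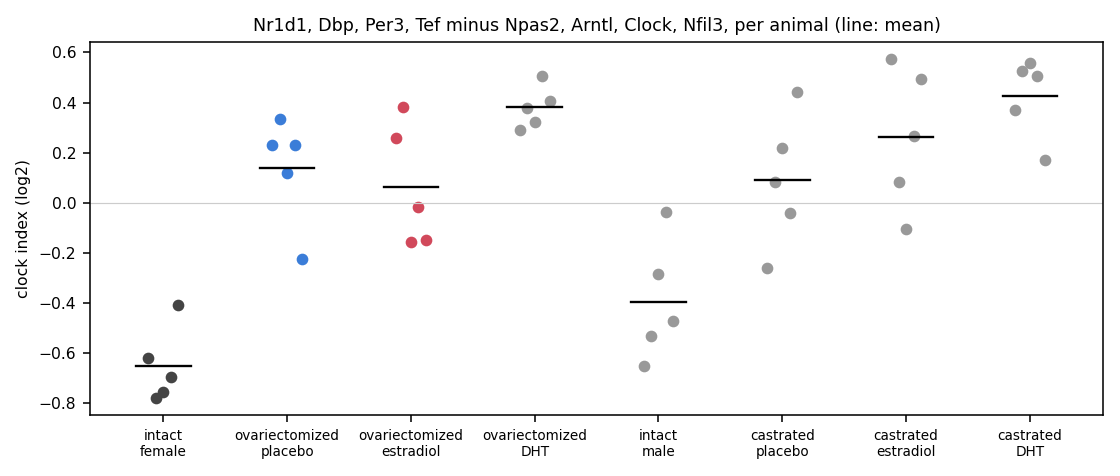
Clock index per animal (log2) in the 8 groups of 5, with a line at each mean. The intact females, at -0.78 to -0.409, sit below all ovariectomized females, with estradiol at -0.155 to 0.384 and with placebo at -0.225 to 0.335.

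The promoters of Arntl and Nfil3 are shown because both clock genes were lower and each holds a hexamer AGGTCA, a unit of nuclear receptor elements and the core of the element read by REV-ERB and ROR proteins. Sequences are 300 bases of RefSeq on GRCm38.p6, 5′ to 3′ on the strand of the gene, and capitals mark AGGTCA or, on the other strand, TGACCT. Arntl lies on the plus strand at chr7:113207261-113207560 (the second of its 2 start sites in the table; the first window has no match), and Nfil3 on the minus strand at chr13:52980990-52981289.
Arntl: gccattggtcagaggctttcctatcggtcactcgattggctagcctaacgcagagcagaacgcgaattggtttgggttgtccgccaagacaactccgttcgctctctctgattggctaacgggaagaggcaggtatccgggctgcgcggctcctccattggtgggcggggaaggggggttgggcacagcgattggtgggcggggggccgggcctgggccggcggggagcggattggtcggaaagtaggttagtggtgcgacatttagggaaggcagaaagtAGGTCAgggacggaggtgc
Nfil3: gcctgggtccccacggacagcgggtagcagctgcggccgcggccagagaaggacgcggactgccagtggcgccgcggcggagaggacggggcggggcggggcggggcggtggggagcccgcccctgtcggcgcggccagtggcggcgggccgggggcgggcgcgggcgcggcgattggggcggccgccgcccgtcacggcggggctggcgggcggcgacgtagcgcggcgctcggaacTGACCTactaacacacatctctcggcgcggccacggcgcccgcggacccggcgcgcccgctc

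Sqle apart, the highest differences without overlap were those of Mmd2, Cxcl13 and Spon1. Mmd2, a membrane protein of the progestin and adipoQ receptor family, lay at -1.24, -1.93, -1.29, -0.95 and -1.69 in intact livers and at -0.7, -0.77, 2.1, 1.89 and 2.31 with estradiol. Animals 33 and 34 lay just above the intact range and the other 3 far above it. The difference was 2.39 ± 0.45, or 5.24-fold (limma adjusted p = 0.00418), and 3.52 without animals 33 and 34. Cxcl13, the chemokine that draws B cells, was -0.91, -1.07, -0.61, -0.91 and -0.51 against 0.05, 0.72, 2.28, 2.83 and 0.37. Here animal 37 lay with animals 33 and 34, and the difference was 2.05 ± 0.43, or 4.14-fold (limma adjusted p = 0.0106). Spon1, a matrix protein (F-spondin), differed by 1.95 ± 0.49 (limma adjusted p = 0.0309), with animals 33 and 34 at -0.68 and -0.9 and animals 35 to 37 at 2.04, 1.73 and 1.98. Without these 2 its difference was 3.03.

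Dntt, the template-free DNA polymerase of lymphocyte precursors, was -0.66, -0.81, -0.74, -0.51 and -0.46 in intact livers and 0.43, -0.31, 2.17, 1.6 and 1.9 with estradiol, a difference of 1.79 ± 0.37 (limma adjusted p = 0.00927). Tff3, a trefoil peptide of mucous surfaces, differed by 1.5 ± 0.41 (0.0461), and Ptgds, prostaglandin D synthase, by 1.33 ± 0.26 (0.00599, limma adjusted). In both, animals 33 and 34 lay barely above the highest intact liver, and without them the differences were 2.41 and 1.93. Rgp1, part of an exchange factor for the trafficking protein Rab6, was -0.52, 0.01, -0.3, -0.05 and 0.02 against 0.3, 0.45, 1.23, 1.38 and 1.38 (difference 1.12 ± 0.18, limma adjusted p = 0.0008). The ciliary gene Cys1 differed by 1.08 ± 0.2, Cmtm7 by 0.97 ± 0.23 and Tmem51 by 0.84 ± 0.16, with limma adjusted p-values of 0.00403, 0.021 and 0.00418. Ngef, a guanine nucleotide exchange factor, behaved otherwise. Its 5 estradiol values, 0.12, 0.02, 0.14, 0.44 and 0.16, were close together and all above the intact range of -1.35 to -0.66, and the difference was 1.13 ± 0.19 (limma adjusted p = 0.000826).

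For most of these genes the placebo group lay near the intact one. Placebo minus intact was 0.38 for Mmd2, -0.04 for Cxcl13, -0.09 for Spon1, -0.08 for Dntt, -0.07 for Tff3, 0.07 for Ptgds and 0.01 for Rgp1, and for these 7 the limma adjusted p was 1.0. Estradiol minus placebo was 2.01, 2.09, 2.04, 1.87, 1.57, 1.26 and 1.11 in a contrast that called 96 genes (0.885%). Of these 7 Tff3 alone did not pass there (limma adjusted p = 0.0619). For Cys1, Cmtm7 and Tmem51 placebo minus intact was 0.38, 0.21 and 0.29. Their estradiol minus placebo values of 0.71, 0.76 and 0.54 did not pass (limma adjusted p = 0.0935, 0.105 and 0.0972). For Ngef placebo minus intact was 0.78 (0.171) and estradiol minus placebo 0.36 (0.518). Mmd2, Cxcl13, Spon1, Dntt and Rgp1 are among 21 genes listed for their response to estradiol in earlier fits of these same animals. Of the 21, 8 rose and 5 fell here, which supports nothing, since the estradiol animals are shared.

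Miox, the enzyme that opens myo-inositol and another of the 21, was -0.45, -0.01, -0.8, 0.3 and 0.41 in intact livers and 0.23, 0.74, 1.79, 1.77 and 1.32 with estradiol. Animal 33 lay within the intact range, and the difference was 1.28 ± 0.29 (limma adjusted p = 0.0191). The promoters of Cxcl13, on the plus strand at chr5:95956689-95956988, and of Miox, on the plus strand at chr15:89334223-89334522, are shown because both genes rose over intact and placebo females and each has 1 such hexamer, in capitals as above.
Cxcl13: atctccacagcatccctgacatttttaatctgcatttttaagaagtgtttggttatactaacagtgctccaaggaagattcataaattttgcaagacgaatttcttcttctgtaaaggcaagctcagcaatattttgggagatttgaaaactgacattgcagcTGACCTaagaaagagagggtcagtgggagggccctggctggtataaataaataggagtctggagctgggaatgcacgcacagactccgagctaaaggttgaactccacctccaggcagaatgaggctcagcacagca
Miox: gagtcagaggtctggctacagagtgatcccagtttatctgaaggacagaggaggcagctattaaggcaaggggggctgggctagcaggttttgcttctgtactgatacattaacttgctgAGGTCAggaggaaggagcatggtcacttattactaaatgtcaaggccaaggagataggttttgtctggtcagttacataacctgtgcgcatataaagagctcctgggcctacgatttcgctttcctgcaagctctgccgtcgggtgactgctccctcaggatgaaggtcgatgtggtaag
The full palindromic estrogen element, searched on both strands as GGTCA, any 3 bases and TGACC, was found in 0 of the 105 called-higher genes and 0 of the 93 called-lower genes that have a promoter in the table, against 20 of 27025 genes in all (0.074%). AGGTCA on either strand occurred in 21.9% of the 105 and 17.2% of the 93, against 16.1% of the 8611 measured genes with a promoter and 18.1% of all 27025. The full element shares GGTCA with the hexamer, so a match to one can overlap a match to the other. The matches describe these windows of 300 bases only.

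Some large differences, among them the largest of all, that of Cyp7b1, passed although the groups overlap, and these rest on animals 35, 36 and 37. Cyp7b1, the oxysterol and steroid 7-alpha hydroxylase that is higher in male than in female mouse liver, lay at -2.72, -2.92, -2.91, -3.19 and -2.96 in intact females. In the estradiol group it was -2.57, -2.92, 1.35, 0.84 and 1.31, so animal 34 could not be told from an intact female and animals 35 to 37 were far above. Its difference was 2.54 ± 0.68, or 5.82-fold (limma adjusted p = 0.043), and 4.11 (2.16e-05) without animals 33 and 34. Placebo females lay at -3.27 to -2.64. Other genes of this kind, named here after their values were seen, had the same shape. The tetraspanin gene Tspan8 differed by 2.51 ± 0.62, the keratin gene Krt79 by 1.96 ± 0.52, the fatty acid binding protein gene Fabp4 by 1.91 ± 0.45, the stearoyl desaturase gene Scd3 by 1.60 ± 0.42 and the B-cell adaptor gene Blnk by 1.5 ± 0.34 (limma adjusted p = 0.0299, 0.0425, 0.021, 0.0364 and 0.0194). Without animals 33 and 34 these differences were 4.06, 3.25, 3.16, 2.65 and 2.35. Fabp4, for example, was -0.82, -0.56, -1.2, -1.01 and -0.93 in intact livers and -0.76, -0.95, 2.49, 2.36 and 1.94 with estradiol. Corin, a serine protease that activates natriuretic peptide, was -0.8, -0.3, -1.09, -0.63 and -1.32 against -0.12, -0.51, 2.44, 1.61 and 1.8 (difference 1.87 ± 0.47, limma adjusted p = 0.0309, and 2.78 without animals 33 and 34). In 25 of the 138 genes called higher, animals 33 and 34 lay within the intact range while none of the other 3 did.

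**Figure D4:**
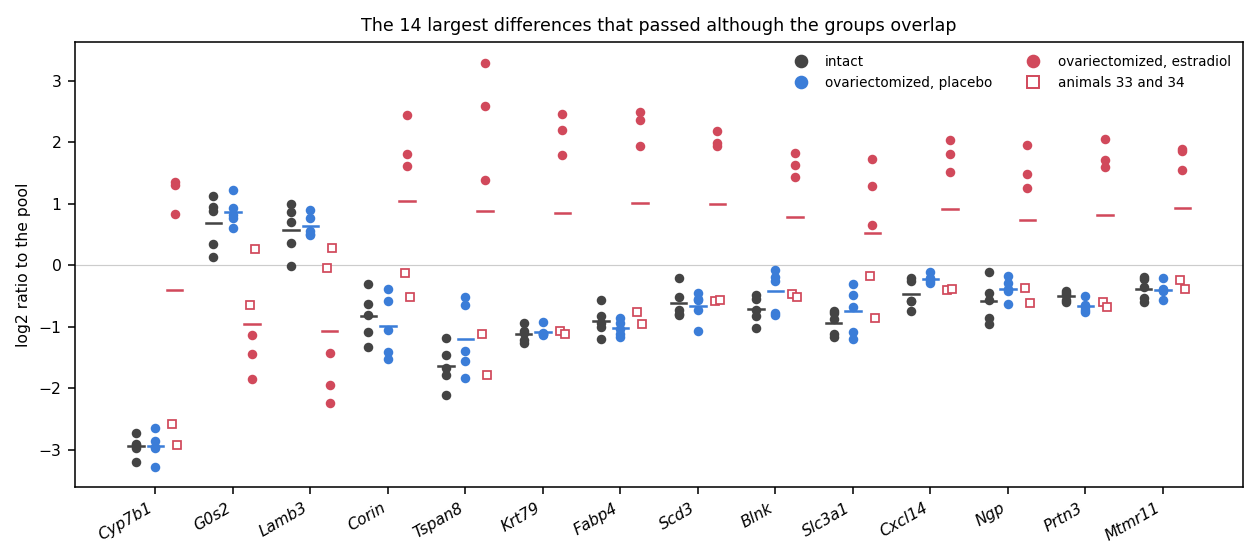
Log2 ratio to the pool per animal for the largest differences that passed although the groups overlap, coloured as in the plot of leading genes. In genes such as Cyp7b1, animals 33 and 34 (open squares) lie with or near the intact and placebo females. Animals 35, 36 and 37 lie apart there, at 1.35, 0.84 and 1.31. G0s2 differs, with animal 33 at -0.65, below the intact range of 0.14 to 1.12.

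Markers of macrophages and neutrophils had their highest mean levels in the same 3 animals. Over 12 measured Kupffer cell and macrophage markers the mean level was -0.46 to 0.03 in intact females, -0.15 and -0.26 in animals 33 and 34, and 1.05, 1.53 and 0.43 in animals 35, 36 and 37. In this list 11 of 12 differences were positive, with a median of 0.69. Only 1 passed, the lysozyme gene Lyz2 (0.63 ± 0.16, limma adjusted p = 0.035), against 1.27% of all genes called higher. Leaving out intact animal 1, 2, 3 or 5 or estradiol animal 35 or 36 left 0 of the 12. Marco, a scavenger receptor of macrophages, was -1.72, -1.67, -0.63, -1.07 and -0.92 in intact livers and -1.38, -0.05, 2.19, 3.15 and 0.36 with estradiol (2.06 ± 0.6, limma adjusted p = 0.0645). Adgre1, an adhesion receptor of macrophages, differed by 1.26 (0.0627), Cd5l by 0.97 (0.0935) and Csf1r by 0.8 (0.0936), and these 4 were picked after their values were seen. Without animals 33 and 34, 10 of the 12 passed, all higher, against 6.86% of all genes called higher in that fit. That fit was chosen after the values were seen, so its counts are no separate support. Over 7 neutrophil markers the mean was -0.52 to 0.06 in intact livers, -0.24 and -0.23 in animals 33 and 34 and 0.66, 1.03 and 0.65 in the others. Of the 7, 1 passed, the granule gene Ngp (1.33 ± 0.36, limma adjusted p = 0.0462), against 1.27% of all genes called higher. Leaving out any 1 intact animal, or estradiol animal 35, 36 or 37, left 0 of the 7. Without animals 33 and 34, 5 passed, against 6.86% of all genes called higher in that fit. In bulk liver more cells of a type and more RNA per cell cannot be told apart. The part of such cells in the differences of Fabp4, Blnk, Cxcl13 or Dntt was not tested. Of 13 T, B and NK cell markers, 6 class II genes, 10 endothelial and 10 stellate cell markers, 0 passed. The adipocyte list had 1 gene that passed, Fabp4, with a median of -0.05 over its 5 genes, and 6 red cell genes, 0 of which passed, had a median of 0.33.

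A further set of genes was lower than in intact livers. Gpd2, the mitochondrial glycerol phosphate dehydrogenase, lay at 0.58, 0.8, 0.63, 0.15 and 0.35 in intact females and at -0.19, -0.36, -0.7, -0.76 and -0.92 with estradiol. The groups did not meet, animals 33 and 34 were the nearest to the intact range, and the difference was -1.09 ± 0.16 (limma adjusted p = 0.000235). Placebo minus intact was -0.01. Cbfa2t3, a transcriptional corepressor gene, was 0.87, 0.61, 0.73, 0.26 and 0.58 against -0.51, -0.42, -0.66, -0.28 and -0.39, a difference of -1.06 ± 0.14 (limma adjusted p = 2.66e-05), with placebo minus intact at -0.21. Krt23, a keratin gene of the bile duct marker list, differed by -1.24 ± 0.25 (limma adjusted p = 0.00671), and the other 4 measured genes of that list did not pass. Car1, a carbonic anhydrase, differed by -0.89 ± 0.21 (limma adjusted p = 0.022), with placebo livers above the intact ones by 0.44 (0.956). The laminin subunit gene Lamb3 differed by -1.66 ± 0.37 (limma adjusted p = 0.0164), with animals 33 and 34 at -0.05 and 0.28 and the others at -2.23, -1.94 and -1.43. Without those 2 the difference of Lamb3 was -2.45. H1f2, a linker histone gene, was 0.69, 0.38, 0.73, 0.89 and 0.54 in intact livers and -0.09, -0.58, -1.02, -0.57 and -0.58 with estradiol, a difference of -1.21 ± 0.22 (limma adjusted p = 0.00246), and its placebo mean of 0.07 lay between the intact mean of 0.65 and the estradiol mean of -0.57.

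For some genes of the estradiol list the intact mean lay between the estradiol and placebo means. Placebo minus intact passed for 0 of the 21 genes of this list. The list was itself chosen on earlier fits of these same animals, so the place of the placebo mean is no independent evidence. Car3 was at -0.49 in intact, -1.24 in estradiol and 0.22 in placebo females, Serpina6, which encodes the corticosteroid carrier of plasma, at -0.31, -0.64 and 0.84, and Aldh1a1, a retinal dehydrogenase, at -0.40, -0.90 and 0.16. Their differences between estradiol and intact, -0.75, -0.33 and -0.50, did not pass (limma adjusted p = 0.236, 0.733 and 0.169), although the Car3 groups did not overlap. Serpina3f, a liver serpin, was at -0.38, -0.07 and -1.07 in the same order, a difference of 0.31 that did not pass (limma adjusted p = 0.665). Treh, trehalase, differed by 1.07 ± 0.31 without overlap and narrowly missed (limma adjusted p = 0.0594), and passed without animals 33 and 34 (0.00341). Raet1d and Paqr7, the latter a membrane progestin receptor, lay at -0.30 and -0.44 and did not pass.

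Some genes fell in both ovariectomized groups, Pdk4, given above, among them. Emb, which encodes embigin, a partner of monocarboxylate transporters, was 1.29, 0.86, 0.81, 0.48 and 0.72 in intact livers and -0.33, -0.14, -0.39, -0.2 and -0.28 with estradiol. The estradiol animals were tightly grouped, and the difference of -1.10 ± 0.12 had a limma adjusted p of 3.06e-06. Placebo minus intact was -0.81 and passed too (0.00146, limma). Btg1, an antiproliferative gene, differed by -0.66 ± 0.11 (limma adjusted p = 0.000887), from 0.43 to 0.87 in intact livers down to -0.17 to 0.17, and on its other probe by -0.22 (0.0934). Cdkn1a was 1.77, 1.37, 0.87, 1.38 and 0.75 in intact livers and 0.07, -0.64, 0, 0.32 and 0.52 with estradiol. Here the difference of -1.17 ± 0.25 (limma adjusted p = 0.0132) was smaller than that of placebo, -1.72, and estradiol minus placebo, 0.55, did not pass (limma adjusted p = 0.411). These 3 and Nr1d1 come from a list of 6 genes chosen on intact and placebo animals of this series, and the intact animals are shared, so their direction is no independent evidence. The other 2, Sp5 and Tbc1d10a, differed by 0.46 and 0.43 and did not pass (limma adjusted p = 0.157 and 0.141). Further genes that fell with estradiol without overlap were Clpx, the unfoldase of a mitochondrial protease (-1.24 ± 0.23, and -1.15 on its other probe), and Ndrg1, a stress-responsive gene (-1.0 ± 0.22), with limma adjusted p-values of 0.00333 and 0.0142. Their placebo minus intact values, -0.78 and -0.46, did not pass (limma adjusted p = 0.366 and 0.956). For Ndrg1 the groups nearly met, with intact animal 1 at 0.13 and estradiol animal 33 at 0.1. Intact animals 3 and 4 were its highest, at 1.69 and 1.53.

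**Figure D5:**
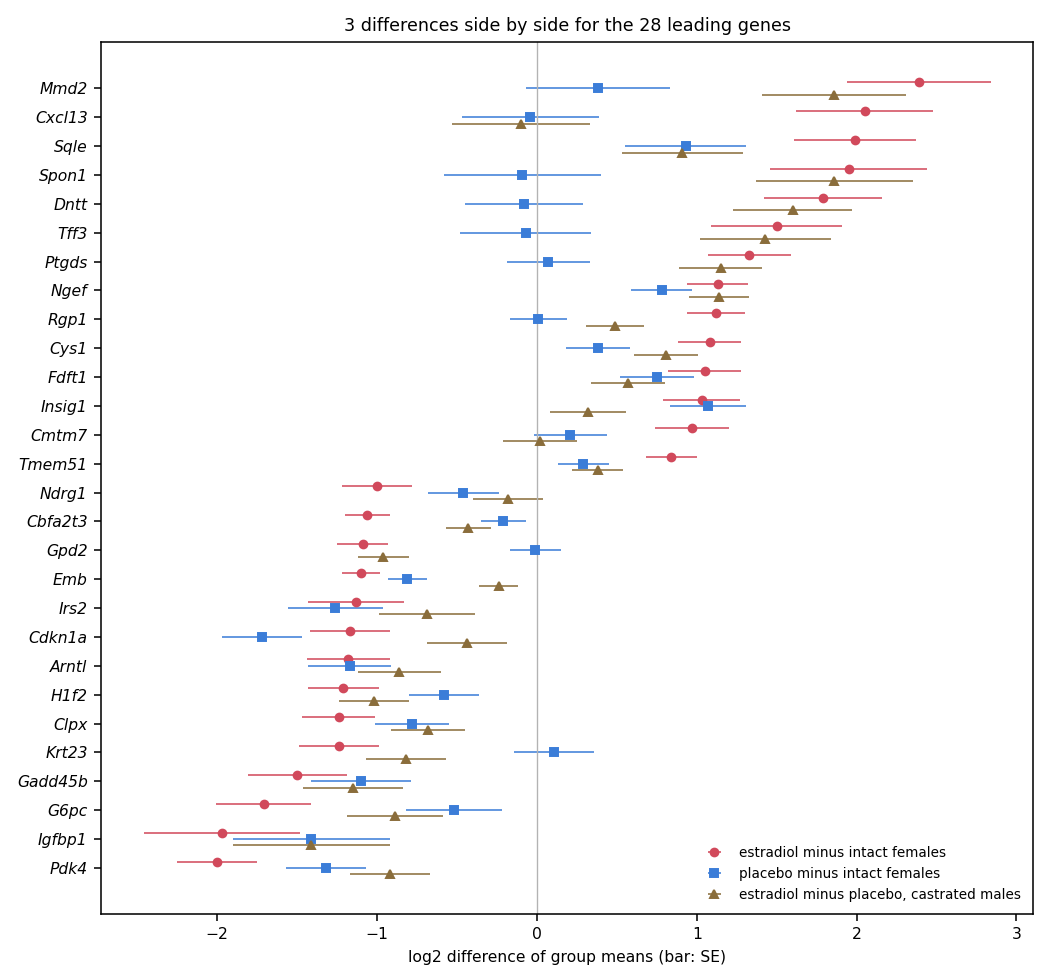
Log2 difference with SE for the genes with the largest differences without overlap, as estradiol minus intact females (red circles), placebo minus intact females (blue squares) and estradiol minus placebo in castrated males (brown triangles). The red and blue values share the intact animals; Mmd2, Spon1 and Dntt have blue values of 0.38, -0.09 and -0.08, while Insig1, Arntl and Irs2 have red and blue values within 0.13 of each other.

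Sex-biased genes passed about as seldom as all genes, of which 2.32% did. Of 26 measured genes known as higher in female mouse liver, 0 passed, with a median of 0.01, and of 28 known as higher in males 1 rose, Cyp7b1, with a median of 0.02. The mean level of the 28 male-biased genes was -1.15 to -0.94 in intact females and -1.07, -1.3, -0.82, -0.83 and -0.74 in animals 33 to 37. Of 18 genes of the growth hormone axis, Igfbp1 fell and 0 rose. Igfbp1 did not pass without intact animal 1, 2 or 5 or without estradiol animal 33, 35, 36 or 37, and Igf1 differed by -0.02 ± 0.18 (limma adjusted p = 0.984). Among 22 measured steroid hormone genes 2 rose, Cyp7b1 and Hsd17b2, the enzyme that oxidises estradiol to estrone. Hsd17b2 was -0.52, -0.22, -0.31, -0.07 and -0.58 in intact livers and 0.03, -0.61, 0.98, 0.79 and 0.79 with estradiol. Animal 34 was below every intact female, and the difference was 0.74 ± 0.2 (limma adjusted p = 0.0449) and 1.2 without animals 33 and 34. Cyp17a1, the steroid hydroxylase and lyase, was 0.75, 0.4, 0.04, -0.27 and 0.79 against 1.21, 0.98, 1.15, 1.16 and 1.22, without overlap, but its difference of 0.80 ± 0.44 did not pass (limma adjusted p = 0.465).

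Other genes of lipid handling passed in small numbers, a larger share of each list than the 2.32% of all genes. Of 25 lipoprotein and lipase genes 2 rose, Pla2g7, which encodes the plasma platelet-activating factor hydrolase (0.91 ± 0.23), and Apoc2, the cofactor of lipoprotein lipase (0.75 ± 0.2), with limma adjusted p-values of 0.0309 and 0.0453. Of 26 fatty acid and triglyceride synthesis genes Scd2, a desaturase, rose (0.61 ± 0.16) and Agpat2, an acyltransferase (-0.65 ± 0.16), and Gpd2 fell. Of 25 bile acid genes Cyp7b1 rose and Amacr, the racemase of branched-chain and bile acid intermediates, fell (-0.31 ± 0.08, limma adjusted p = 0.0316). Serpina12 was the single member of 25 acute phase and serpin genes to rise (0.65 ± 0.16, limma adjusted p = 0.0244). In Scd2, Pla2g7 and Serpina12 animal 34 lay within or below the intact range, at -0.32, -0.34 and -0.35, and without animals 33 and 34 the differences were 1.03, 1.43 and 1.02. Single animals of either group decided these calls. Leaving out estradiol animal 35, 36 or 37 or intact animal 3 removed every call among the steroid, bile acid, lipoprotein and acute phase lists, and intact animal 1 or 5 every one but that of the acute phase list. No gene passed among 33 complement and coagulation genes, 21 iron and heme genes, 19 Cyp2b, Cyp2c and Cyp3a genes, 37 conjugation genes and 19 genes of the unfolded protein response. Of 34 cell cycle genes 3 fell, the growth arrest genes Cdkn1a, Gadd45b and Btg1, against 1.04% of all genes called lower, and 0 rose. Without animals 33 and 34, 3 fell and 8 rose, against 3.93% and 6.86% of all genes in that fit. The proliferation marker Mki67 differed by 0.04 ± 0.13 with all 5 estradiol animals (limma adjusted p = 0.956).

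Of 16 tubulin and tubulin complex genes, a list made after the values were seen, 5 rose, all alpha tubulins, between 0.4 (Tuba4a) and 0.6 (Tuba1b). Their probes disagree. The other probe of Tuba1b gave 0.42 and one more of Tuba1c 0.53, but 3 further probes of Tuba1c lay at 0.09, 0.09 and -0.01, and those of Tuba3b and Tuba4a between -0.07 and -0.01. Alpha tubulin genes are near-identical in sequence, so these calls are uncertain by gene.

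Castrated males with the same pellet, compared with castrated males on placebo, share no liver with the females. In that comparison 156 of 10842 genes passed (1.44%), 98 higher (0.904%) and 58 lower (0.535%). The genes that passed in both numbered 42, which is 16.7% of the 251 female genes and 26.9% of the 156 male genes, and all 42 had the same direction. They include Mmd2 (2.39 in females, 1.86 in males), Spon1 (1.95, 1.86), Dntt (1.79, 1.60), Cyp7b1 (2.54, 2.85), Corin (1.87, 1.89), Ptgds (1.33, 1.15), Ngef (1.13, 1.14), Gpd2 (-1.09, -0.96) and H1f2 (-1.21, -1.02). The female values here are against intact females and the male values against castrated placebo males. The castrated estradiol males were spread as well. Animals 41, 43, 44, 45 and 46 lay at -0.72, 1.64, 2.21, -0.4 and 0.24 for Mmd2. For Spon1 they lay at -1.28, 2.18, 2.63, -0.63 and 0.63, and for Cyp7b1 at -1.5, 1.72, 1.65, -1.34 and 0.92. Animals 41 and 45 were the lowest for these genes, whereas for Ngef the males lay at 0.24 to 0.74. Cxcl13 was at 2.05 in females and -0.10 in males, and at 2.09 for estradiol minus placebo in females. Emb was at -1.10 and -0.24, but estradiol minus placebo in females was -0.29. No probe passed the test of the difference between the change from intact in females and the change from placebo in males in limma (883 at an unadjusted p under 0.05, lowest adjusted p = 0.229, for Emb), and with animals 33 and 34 left out 58 probes did, 53 of them higher in the female change.

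Of the 64 named genes that passed, 19 passed without each of the 10 animals in turn: Angptl4, Btg1, Cbfa2t3, Clpx, Cpt2, Cys1, Emb, G6pc, Gadd45b, Gpd2, H1f2, Krt23, Mmd2, Ngef, Pdk4, Ptgds, Rgp1, Sqle and Tmem51. The other 45 lost their call without at least 1 animal, and of the single animals the largest number, 39, was lost without animal 36. Angptl4, Cbfa2t3, Emb, Gpd2, H1f2, Pdk4 and Sqle passed under every other setting tried as well, animals 33 and 34 left out together included. Mvd, Fdps, Lss, Insig2, Ppara, Pck1, Pygl, Tat, Per1, Igf1 and Mki67 lie outside the naming rule and were chosen after their values were seen.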

How the data were processed

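The authors deposited log10 ratios of each liver (Cy5, per the labels) to a common pool (Cy3) for 23574 probes on 40 arrays, with 0 missing values. Values stop at 2 and -2, and 29 values on 16 probes lie at that limit. Background correction, normalization and centring are not given in the sources used here, nor is a batch, slide or date. The labels fix the direction. Over all probes the lowest correlation between 2 arrays was -0.47, and 28 of 780 pairs lay below -0.3, none of them within the 10 livers compared. All 20 females lay below every male for Eif2s3y and Kdm5d. The base of the logs was checked on Eif2s3y, whose mean over males exceeded the pool by 1.94-fold if the base is 10, by 1.22-fold if it is 2 and by 1.33-fold if it is e; equal parts of both sexes in a pool allow up to 2-fold.

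The deposited log10 values were multiplied by 3.3219 to log2. The 40 arrays entered 1 limma fit (version 3.58.1, R 4.3.3) with a mean for each of the 8 groups (lmFit, eBayes, 32 residual degrees of freedom), and p-values are two-sided and Benjamini-Hochberg adjusted over 23574 probes within each contrast. Each mouse is 1 sample. The number of arrays limits the precision, and the median residual SD was 0.146. Of the probes, 13665 had 1 symbol, 48 several and 9861 none in the platform annotation; 1003 fell outside the RefSeq mouse table, which left 12662 probes of 10842 genes. For the 1157 genes with over 1 probe, the probe with the largest SD stands for the gene. The text names the 14 highest and 14 lowest genes that passed without overlap (clone names left out), up to 4 called members of each list, all genes of the ovariectomy and estradiol lists, and Esr1, Ghr, Cyp7b1, Cyp17a1, Eif2s3y and Kdm5d. Members, lists and alternatives were chosen with earlier results of these data known. The fit was also run on simulated data of 23574 probes. There it called 62 of 67 probes changed by 1.5-fold, 66 of 67 by 2-fold and 66 of 66 by 4-fold. Of all 201 calls 7 were false. These rates hold for the simulated data only. A split within a group, like that among the estradiol animals, was not tested. The rates are therefore no measure of missed or false calls in the comparison itself. The major urinary protein genes were not among the named probes.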

Additional observations from a re-analysis of the deposited data

Results flagged for a closer look

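In 5 of the 166 sets of 5 animals examined, 1 animal lay far from the other 4 of its group; chance gives about 1 in 20 such sets. Igfbp1 was at 1.85 in intact animal 2, with the other intact females at 0.44 to 0.72, and at -1.91 in estradiol animal 33, with the others at -1.04 to -0.73. Apoc2 was at -0.12 in intact animal 4, against -0.38 to -0.31 in the others. Car1 was at -0.70 in intact animal 4, against -0.25 to -0.08. Sp5 was at -0.95 in intact animal 2, against -0.43 to -0.3. Animals 33 and 34 together do not meet this criterion in a gene such as Cyp7b1, since each is then near another member of its group.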

How the results depend on the processing

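In the main contrast, counts of called probes moved with the samples in the fit more than with scaling or filters. For placebo minus intact and for castrated males, scaling or filters moved the counts as well. The main count of 445 became 48 with the 10 arrays alone, 198 with the 20 female arrays, 734 with arrays scaled to equal spread, 822 once the clock index was added, 1806 with array weights and 2086 without animals 33 and 34, the last an alternative chosen after seeing the data; leaving out 1 animal gave 84 to 1455. The 156 probes of at least 1.5-fold became 40, 93, 522 (clock index), 346 (weights) and 712 (without animals 33 and 34), and 48 to 408 with 1 animal left out. Placebo minus intact gave 8 probes, against 31 with array weights, 17 with equal spread, 0 with the clock index, 13 with named probes, 19 with the more variable probes and 16 with quantile normalization, and 2 to 11 with 1 animal left out. Estradiol minus placebo gave 149, against 1092, 277 and 1608 with weights, equal spread and without animals 33 and 34, and 22 to 902 with 1 animal left out. In castrated males the count of 278 became 753 with weights, 112 with equal spread, 444 with the clock index and 183 with named probes. The test of the difference between both changes went from 0 to 58 without animals 33 and 34, 3 with weights and 1 with the clock index. The cause of these shifts was not tested. The fits of 10 and 20 arrays differ from the main one in the number of arrays and in the groups that set the spread. With the 10 arrays alone 48 of the 64 named genes that passed no longer did, and with the 20 female arrays 23. The main fit shares 1 spread over 8 groups. For Cyp7b1 the SD was 2.16 with estradiol against 0.17 in intact females, but for Sqle it was 0.34 against 0.77. Differences that reversed had not passed: Sp5 (-0.01) and Tbc1d10a (-0.09) with the clock index, Esr1, between -0.15 and 0.04 with 1 animal left out and positive without intact animal 3, and Ghr, between -0.07 and 0.21 and negative without estradiol animal 35. Of the 64 named genes that passed, 0 reversed under any alternative. No paired analysis was possible because each animal number occurs in 1 group only. Signal over background was not used here, so dim probes could not be told from bright ones.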
